A study of Mus musculus with 6 samples.

Results

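Tricarboxylic acid cycle enzymes were examined through 9 genes, Cs, Idh3a, Idh2, Ogdh, Dlst, Suclg1, Sucla2, Fh1 and Mdh2. They were chosen by gene symbol, with earlier results of these data known. All 9 were measured, each by 1 probe set that the platform annotation assigns to that symbol alone, among 19938 genes tested and 35557 probe sets on the array. No probe set with several symbols held a member. Whether the probes of a member also match processed copies elsewhere in the genome was not determined here.

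RNA came from mouse skeletal muscle, hybridised to 6 Affymetrix MoGene arrays, and the series title names SOCS-3. The transgenic group (TG) and the wild-type group (WT) had 3 arrays each, every array from a separately named mouse. The labels do not give the construct, its promoter, the strain, the age, or which muscle was taken, so the limits of the TG mice as a model cannot be stated. Array medians lay between 5.98 and 6.04 on the log2 scale, and the 8 markers of skeletal muscle fibres were present on every array, with mean levels of 13.70 to 14.59. In whole tissue, fewer cells of a type and less RNA per cell cannot be told apart.

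The tricarboxylic acid cycle runs in the mitochondrial matrix, where it oxidises the acetyl group of acetyl-CoA to carbon dioxide and passes the electrons to the respiratory chain as NADH and FADH2. Its enzymes are encoded in the nucleus and imported. In muscle they are abundant, and citrate synthase activity is commonly used as a measure of mitochondrial content. Cycle transcripts are higher in oxidative fibres and with endurance training.

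Cycle enzyme transcripts were measured at nearly the same level in TG and WT muscle. No member passed the threshold of 0.05 on the adjusted p (limma, Benjamini-Hochberg over all genes; adjusted p from 0.823 for Dlst to 0.980 for Mdh2), and none had an unadjusted p under 0.05. Over all genes 0.00502% were called at that threshold and 6.75% had an unadjusted p under 0.05. The intervals were narrow: for the 8 members other than Idh2, the 95% limits of the ratio of TG to WT all lay between 0.88-fold and 1.19-fold. For Idh2 they were wider, 0.73-fold to 1.14-fold. A p that misses the threshold does not show that the groups were equal, and these limits give the differences that 3 arrays per group leave possible.

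The differences, TG minus WT on the log2 scale, were above 0 for 7 of 9 members, with a median of 0.052. Over all genes 43.8% of differences were above 0 and the median was -0.016. Over the 628 genes measured at or above the level of the lowest member, 53.5% were above 0 and the median was 0.006. The median of the members was 0.022 when WT array 2 was left out, and it was 0.092 when the arrays were set to a common median. It was above 0 under each of the 16 alternatives tried, though several of these cannot change a member's difference. The groups did not overlap for 1 member, Fh1, against 12.3% of all genes. No member had all TG arrays below all WT arrays, which was the case for 7.76% of all genes.

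**Figure D1:**
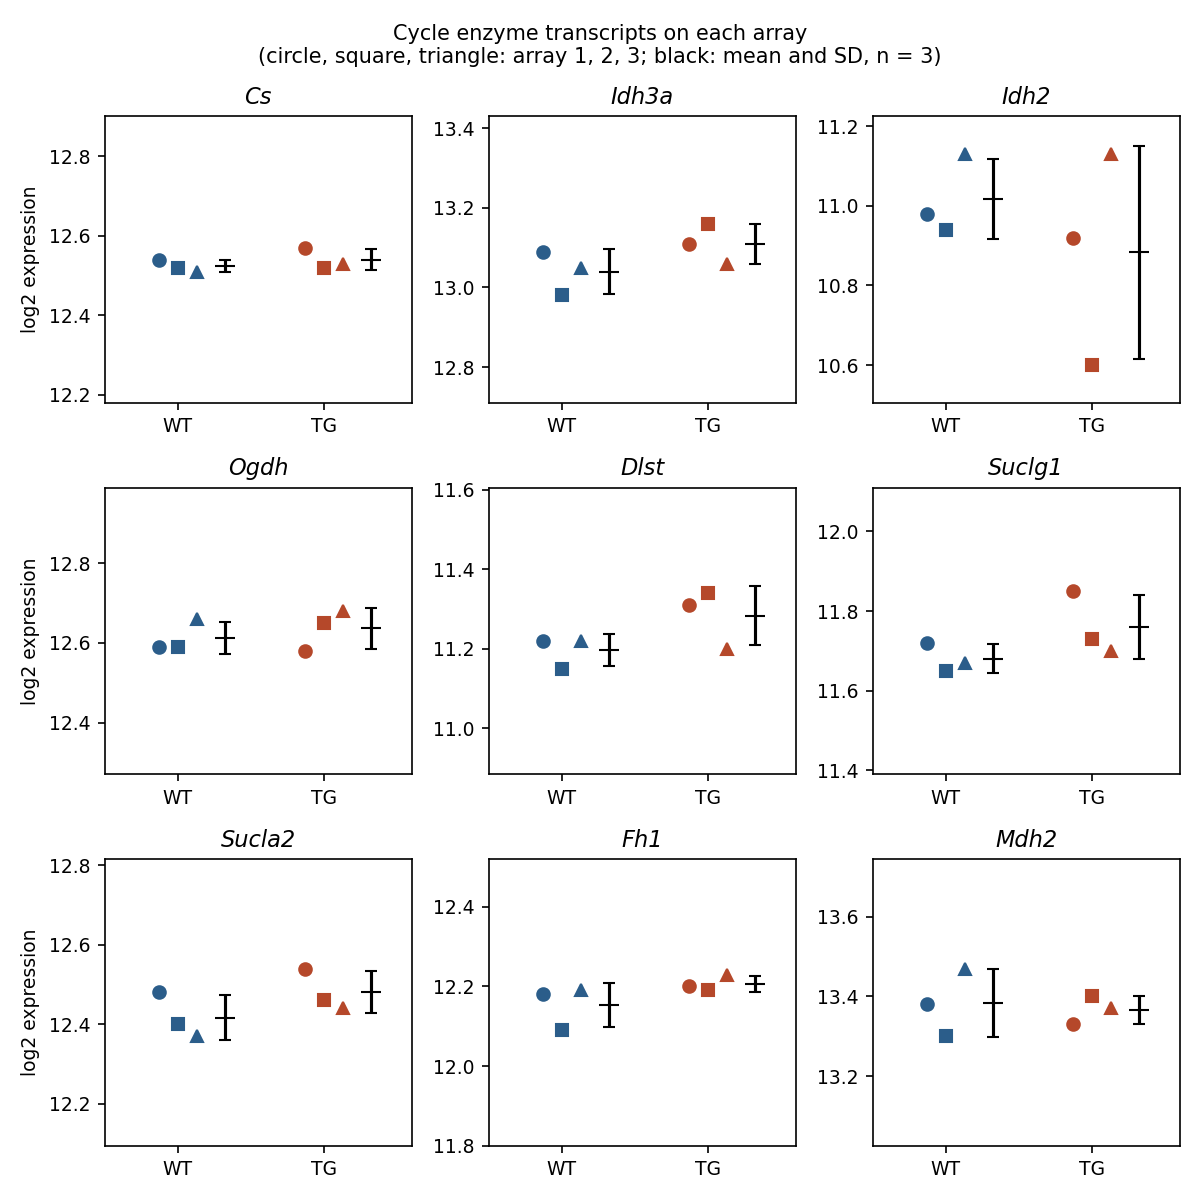
Log2 expression of the 9 members on each array, WT in blue and TG in red, with the group mean and SD (n = 3) in black; every panel spans the same height in log2 units. Group values overlap for every gene except Fh1, whose groups are separated by 0.0012, and Idh2 has the widest scatter, with TG array 2 at 10.60.

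The promoters of 5 members are shown, for the following reasons. Cs varied least between arrays, Idh2 varied most, Fh1 was the member whose groups did not overlap, and Suclg1 and Sucla2 encode the 2 subunits of a single enzyme. Each line gives the 100 bases just before the RefSeq start in GRCm38.p6, 5′ to 3′ on the gene's strand, with capitals for matches to the motifs named after them.
Cs, chr10:128337627-128337726, plus strand: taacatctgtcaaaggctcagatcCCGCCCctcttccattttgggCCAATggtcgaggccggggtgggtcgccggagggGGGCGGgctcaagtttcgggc
Idh2, chr7:80115351-80115450, minus strand: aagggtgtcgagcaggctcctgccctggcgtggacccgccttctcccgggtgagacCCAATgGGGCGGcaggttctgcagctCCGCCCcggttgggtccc
Fh1, chr1:175625636-175625735, minus strand: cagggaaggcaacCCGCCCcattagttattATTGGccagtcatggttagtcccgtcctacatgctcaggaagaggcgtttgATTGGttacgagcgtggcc
Suclg1, chr6:73248405-73248504, plus strand: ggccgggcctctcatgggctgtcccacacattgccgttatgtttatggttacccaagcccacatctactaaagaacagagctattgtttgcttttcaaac
Sucla2, chr14:73552686-73552785, plus strand: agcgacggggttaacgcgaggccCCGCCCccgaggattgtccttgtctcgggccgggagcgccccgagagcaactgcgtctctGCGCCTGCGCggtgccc

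The motifs were searched on both strands in the 250 bases before each start, and 8 of the 9 members had a promoter in the table (Idh3a did not). GGGCGG, the GC box, was found for 7 of 8 members, and 35.4% of 27025 genes held it. The member promoters were also richer in the bases of that motif, with a median GC content of 57.6% and a median of 18 CpG in the 250 bases over 13 annotated starts, against 52.4% and 6 over all promoters, and the part of base composition in the count was not tested. Several of the 13 starts belong to Ogdh, so the member medians weigh that gene more than the others. CCAAT was found for 4 of 8 members, against 37.5% of genes. The NRF1 motif, GCGC followed by any base and TGCGC, was found for Sucla2 alone, against 4.23% of genes. Neither the ETS motif CCGGAAG nor the ERR motif AAGGTCA was found for any of the 8, against 7.83% and 4.70% of genes. The GC box also stands in both the steadiest member, Cs, and the most variable, Idh2, while Suclg1 held none of the 5 motifs. The motifs share no letters where they were matched in these lines, Ogdh has several annotated starts and so more bases searched, and a match in these letters shows no binding.

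The first step is catalysed by citrate synthase, which joins acetyl-CoA to oxaloacetate. Cs was at 12.57, 12.52 and 12.53 on TG arrays 1, 2 and 3, and at 12.54, 12.52 and 12.51 on WT arrays 1, 2 and 3. The groups overlap, and no array stands apart. The means were 12.54 ± 0.028 in the TG group against 12.53 ± 0.017 in the WT group (SD over 3 arrays), and the log2 difference of 0.02 (SE 0.06) had a 95% interval of -0.12 to 0.16, or 0.92-fold to 1.12-fold (limma, adjusted p = 0.970). Its SD within groups, 0.0228, was lower than that of all but 0.973% of the genes tested.

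Isocitrate is oxidised in the mitochondrion by 2 kinds of enzyme, an NAD-linked complex whose catalytic subunit is Idh3a and an NADP-linked enzyme, Idh2, which also supplies NADPH to the matrix. Idh3a was at 13.11, 13.16 and 13.06 on the TG arrays and at 13.09, 12.98 and 13.05 on the WT arrays. TG arrays 1 and 2 lay above every WT array, TG array 3 lay within the WT range, and WT array 2 was lowest. The difference was 0.07 (SE 0.07, 95% interval -0.09 to 0.22; limma, adjusted p = 0.865).

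Idh2 had the widest spread between arrays of the 9 members. It was at 10.92, 10.60 and 11.13 on the TG arrays and at 10.98, 10.94 and 11.13 on the WT arrays. TG array 2 was the lowest of the 6 and TG array 3 shared the highest value with WT array 3, so the TG group spanned the whole WT range. The means were 10.88 ± 0.27 in the TG group against 11.02 ± 0.099 in the WT group (SD over 3 arrays), a difference of -0.13 (SE 0.13, 95% interval -0.45 to 0.18; limma, adjusted p = 0.868). Without TG array 2 the difference was 0.011, and without TG array 3 it was -0.257, so 1 array set its direction. Its SD within groups, 0.203, lay above 86.9% of all genes and above 96.5% of the 628 genes at or above the lowest member's level.

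Other measurements also differed on the arrays that placed Idh2. The 7 hepatocyte markers measured had their highest mean level on TG array 2, 8.45, and their lowest on TG array 3, 5.73, with WT arrays at 7.32 to 8.10. Among the WT arrays these markers were highest on array 3, 8.10, where Idh2 was at 11.13, its shared highest value. All 7 were below 0 in TG minus WT, with a median of -0.699, Apoa1 at -0.78 (SE 0.46) and Ttr at -0.70 (SE 0.51). Their mean levels over the 6 arrays were 6.50 to 9.05. On TG array 3, Ahsg was at 4.08, Fgb at 5.44, Apoc3 at 5.63 and Ttr at 5.94, below the lowest array median, 5.98. Alb, Apoa1 and Apoa2 were at 6.29, 6.23 and 6.48 there. The direction below 0 rested on TG array 3. Without it 3 of 7 were above 0, the median was -0.104, and Apoa1 and Ttr were at -0.33 and -0.19. With the mean of these markers as a covariate the Idh2 difference was -0.257 (limma, adjusted p = 0.711). The 7 slow fibre markers had their lowest mean level on TG array 2 as well, 7.33, against 7.38 to 7.66 on the other arrays. Among them only Tnnt1 and Myl2 had their own lowest value on that array, 6.66 and 5.78. Myh7 had its highest value there, 6.42, so the markers did not share 1 direction. The mean level of the slow fibre markers on TG array 3, where Idh2 was at 11.13, was 7.38. The part of fibre type in the Idh2 values was not tested.

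The 2-oxoglutarate dehydrogenase complex turns 2-oxoglutarate into succinyl-CoA. Ogdh encodes its first component, which decarboxylates the substrate. It was at 12.58, 12.65 and 12.68 on the TG arrays and at 12.59, 12.59 and 12.66 on the WT arrays. The lowest and the highest of these values were both TG arrays, and the difference of 0.02 (SE 0.07) was smaller than the spread in either group. It was -0.019 after quantile normalization.

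Dlst encodes the succinyltransferase core of the same complex. It was at 11.31, 11.34 and 11.20 on the TG arrays and at 11.22, 11.15 and 11.22 on the WT arrays. TG arrays 1 and 2 were above every WT array, and TG array 3 was within the WT range. Its difference, 0.09 (SE 0.07, 95% interval -0.07 to 0.25; limma, adjusted p = 0.823), was the highest of the 9 members, and without each array in turn it stayed between 0.06 and 0.13.

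Succinyl-CoA ligase makes ATP or GTP directly, with an alpha subunit shared by both forms, Suclg1, and an ATP-forming beta subunit, Sucla2. Suclg1 was at 11.85, 11.73 and 11.70 on the TG arrays and at 11.72, 11.65 and 11.67 on the WT arrays. TG array 1 was the highest, and TG array 3 lay just below WT array 1. The difference was 0.08 (SE 0.07, 95% interval -0.08 to 0.24; limma, adjusted p = 0.840).

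Sucla2 was at 12.54, 12.46 and 12.44 on the TG arrays and at 12.48, 12.40 and 12.37 on the WT arrays. TG array 1 was highest, and WT array 1 lay above TG arrays 2 and 3. The difference was 0.06 (SE 0.07, 95% interval -0.10 to 0.22; limma, adjusted p = 0.883).

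Fumarate hydratase, Fh1, adds water to fumarate to form malate. Fh1 was at 12.20, 12.19 and 12.23 on the TG arrays and at 12.18, 12.09 and 12.19 on the WT arrays. All 3 TG arrays were above all 3 WT arrays, which held for 4.52% of all genes, but the lowest TG value, 12.187, and the highest WT value, 12.185, differed by 0.0012. The difference was 0.05 (SE 0.06, 95% interval -0.10 to 0.20; limma, adjusted p = 0.887), and without each array in turn it was 0.02 to 0.07.

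Mitochondrial malate dehydrogenase, Mdh2, regenerates oxaloacetate and also serves the malate-aspartate shuttle. It was at 13.33, 13.40 and 13.37 on the TG arrays and at 13.38, 13.30 and 13.47 on the WT arrays. The WT arrays held both the lowest and the highest value, and the TG arrays lay between them. The difference of -0.02 (SE 0.07, 95% interval -0.18 to 0.15; limma, adjusted p = 0.980) had no settled sign, being 0.028 without WT array 3, 0.003 without TG array 1, 0.002 after quantile normalization and 0.025 with a common array median.

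**Figure D2:**
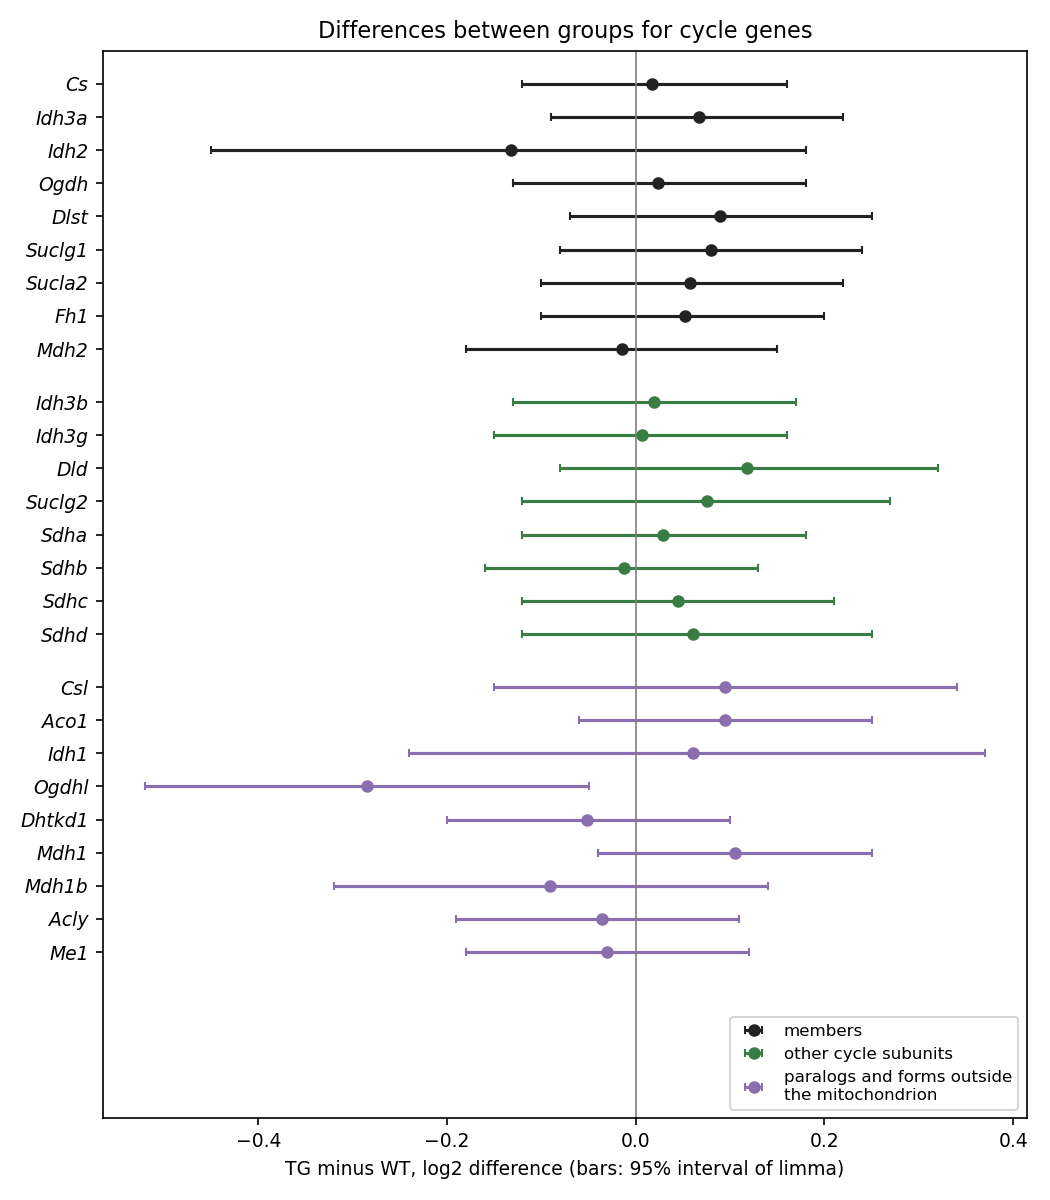
TG minus WT on the log2 scale with 95% intervals of limma (n = 3 each) for the 9 members, 8 other subunits of the cycle, and 9 paralogs or forms outside the mitochondrion. The intervals of all members and of all 8 other subunits include 0; Idh2 has the widest among the members, and Ogdhl, at -0.28, has an interval below 0 but an adjusted p of 0.719.

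The spread between arrays was small for most of the cycle. The 8 members other than Idh2 had an SD within groups of 0.0228 to 0.0651, each below the median of all genes, 0.112. Genes measured at or above the lowest member's level had a median SD of 0.0546, and that of the 9 members was 0.0547, so the small spread of these transcripts was like that of other transcripts measured at such levels. Over the 6 arrays the highest and lowest value of each of these 8 genes differed by 0.06 to 0.20, against 0.54 for Idh2.

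**Figure D3:**
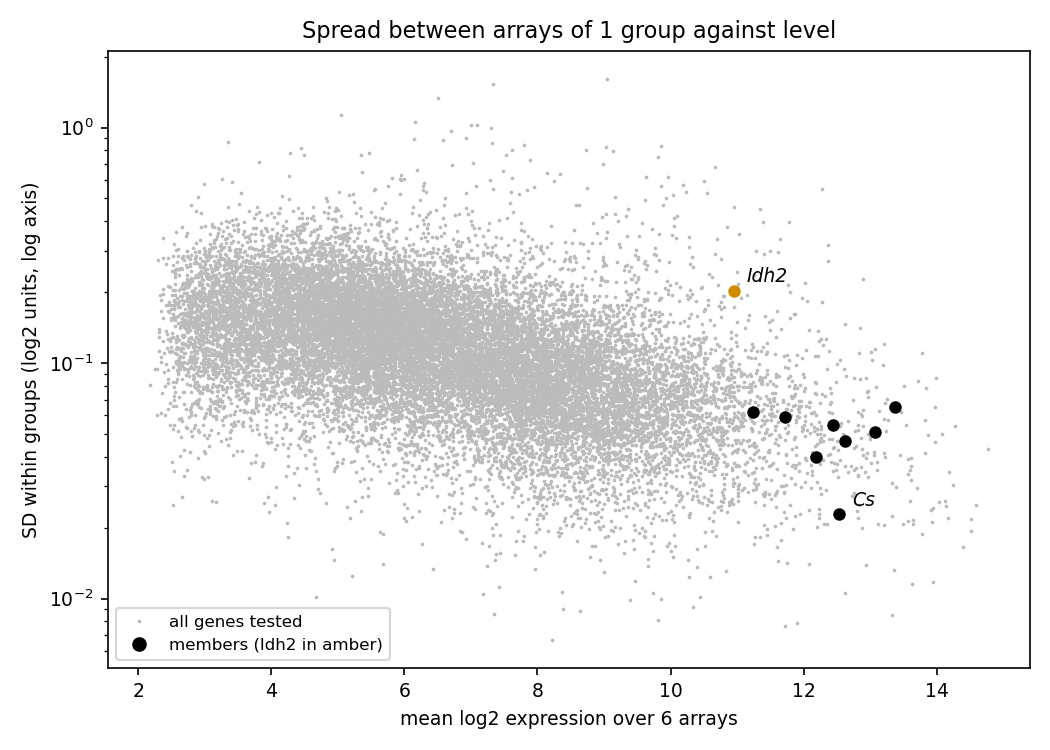
SD within groups (log axis) against the mean log2 level over 6 arrays for all 19938 genes in grey, with the members in black and Idh2 in amber. The members lie at the right of the plot, with Cs at 0.0228 among the genes of smallest spread and Idh2 at 0.203 above most genes of its level.

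Arrays also differed from each other across members. WT array 2 was below the gene's own 6-array mean for all 9 members (0 of 9 above it) and was the lowest array for 5 of them, with a mean deviation of -0.058. The other arrays had mean deviations of -0.011 to 0.030. Without Idh2 the means were 0.037 and 0.031 on TG arrays 1 and 2, 0.002 on TG array 3, and 0.000, -0.063 and -0.007 on WT arrays 1, 2 and 3. WT array 2 was also the lowest array for the mean of the 8 other cycle subunits, at -0.089, and for that of the lipoylation and succinate dehydrogenase assembly factors, at -0.104. Over all genes its median deviation was -0.006, and over the genes at or above the lowest member's level its mean deviation was -0.025. The part of this array in the members' median is given by the value without it, 0.022.

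**Figure D4:**
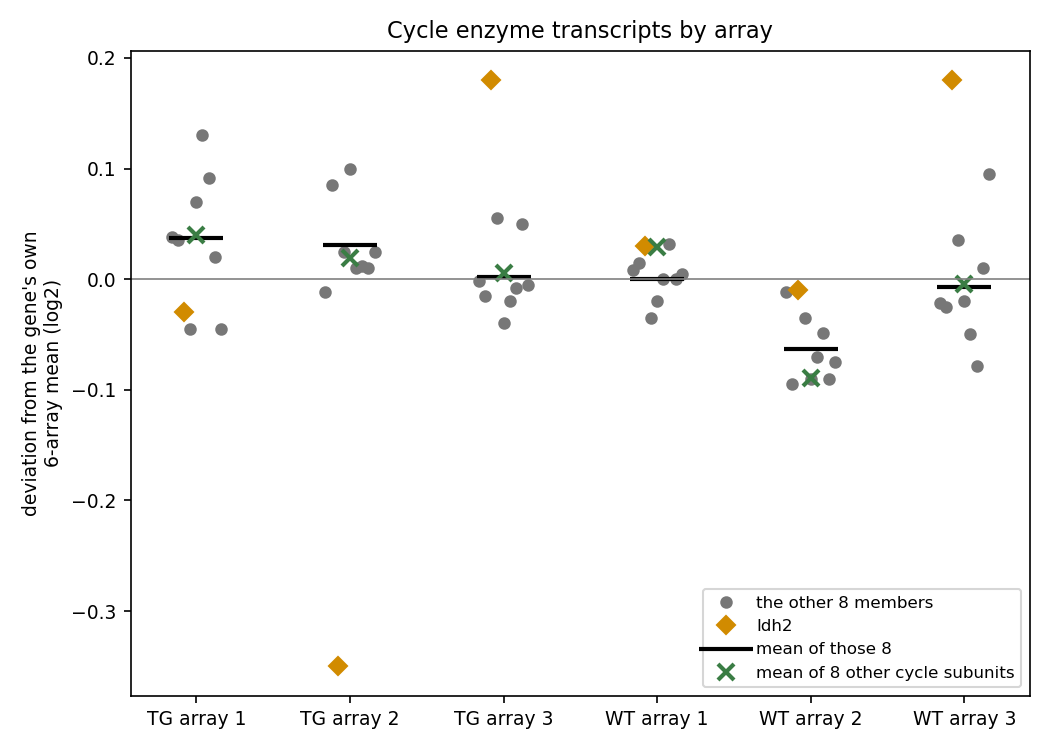
Deviation of each member from its own 6-array mean (log2) by array, with Idh2 as amber diamonds, the other 8 members as grey circles, their mean as a black bar and the mean of 8 other cycle subunits as a green cross. On WT array 2 the mean of the 8 members is -0.063 and that of the other subunits is -0.089, both the lowest of the 6 arrays.

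Members followed each other across the arrays to differing extents. As a description over 6 arrays, which share hybridisation and the group difference, Pearson's r between a member and the mean of the others ran from -0.35 for Idh2 to 0.90 for Fh1. Among 619 other genes at or above the lowest member's level, those whose values most resembled the members' mean deviation were Hadha, a subunit of the trifunctional protein of fatty acid oxidation (r = 0.977), Nipsnap2 (0.969), the mitochondrial ribosomal protein gene Mrps15 (0.962), the proton pump subunit gene Atp6v1g1 (0.945) and the carbonic anhydrase gene Car3 (0.939). Each of these 5 genes had its lowest value on WT array 2, and their TG minus WT differences were 0.03 to 0.06. Sharing that array follows in part from choosing the genes by likeness to the members' mean.

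The rest of the cycle gave similar values. Of the differences of 8 other subunits, 7 were above 0, with a median of 0.037 and no gene past the threshold in either direction. Without WT array 2, 4 of the 8 were above 0. Dld, the dihydrolipoyl dehydrogenase that completes the 2-oxoglutarate dehydrogenase complex, had the largest difference at 0.12 (SE 0.09). It was at 11.92, 11.84 and 11.76 on the TG arrays and at 11.82, 11.59 and 11.76 on the WT arrays, so the groups overlap and WT array 2 was lowest. Suclg2, the GTP-forming beta subunit that pairs with Suclg1, differed by 0.08 (SE 0.08), and its second probe set by 0.06. The partners of Idh3a, Idh3b and Idh3g, differed by 0.02 and 0.01. The succinate dehydrogenase subunits Sdha, Sdhb, Sdhc and Sdhd, which also form complex II of the respiratory chain, differed by 0.03, -0.01, 0.05 and 0.06.

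Of the 9 paralogs and forms outside the mitochondrion, 4 were above 0 and the median was -0.030, with none past the threshold. Cytosolic malate dehydrogenase, Mdh1, was higher on every TG array (13.12, 13.15 and 13.06) than on every WT array (13.03, 12.96 and 13.03), with a difference of 0.10 (SE 0.06; limma, adjusted p = 0.796). Its mitochondrial counterpart Mdh2 did not separate in that way, though the contrast between these genes was not tested. Ogdhl, a paralog of Ogdh, was lower on every TG array (5.99, 5.90 and 6.05) than on every WT array (6.07, 6.29 and 6.43), with a difference of -0.28 (SE 0.10; limma, adjusted p = 0.719). Dhtkd1, also in this list, had all TG arrays below all WT arrays too, with a difference of -0.05 (SE 0.06). Over all genes, 7.76% had all TG arrays below all WT arrays and 4.52% had all TG arrays above. The Ogdhl levels lay near the array medians of 5.98 to 6.04. Cytosolic isocitrate dehydrogenase, Idh1, differed by 0.06 (SE 0.13), cytosolic aconitase, Aco1, by 0.10 (SE 0.07) and the ATP citrate lyase gene Acly by -0.04 (SE 0.06).

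Routes that feed and drain the cycle had no gene past the threshold. In the pyruvate dehydrogenase group, which makes the acetyl-CoA used by citrate synthase, 8 of 10 genes were above 0 and the median was 0.063. Pdp2, a phosphatase that activates the complex, stood apart from the other 9 at 0.54 (SE 0.08; limma, adjusted p = 0.299), and the kinase gene Pdk4 was at 0.16 (SE 0.08). Anaplerotic and amino acid entry genes lay above 0 in 10 of 16 cases (median 0.028), with the mitochondrial PEP carboxykinase gene Pck2 at -0.14 and the branched-chain acyltransferase gene Dbt at 0.13. Carriers had 4 of 8 above 0 and a median of 0.020. Among them the glutamate carrier gene Slc25a22 was at 8.35, 8.17 and 8.29 in TG and 7.95, 8.04 and 7.94 in WT, with all TG arrays higher and a difference of 0.29 (SE 0.07; limma, adjusted p = 0.660), while the citrate carrier gene Slc25a1 was at -0.21 (SE 0.13). The order seen for Slc25a22, all TG arrays above all WT arrays, held for 4.52% of all genes. Lipoylation and assembly factors had 6 of 8 above 0 and a median of 0.069, with the lipoyl synthase gene Lias at 0.12 and Lipt1 at 0.12.

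Regulators of mitochondrial gene expression were not called either, with 10 of 16 above 0 and a median of 0.023. Tfam, which packages and transcribes mitochondrial DNA, was at 8.91, 8.88 and 8.88 in TG and 8.86, 8.65 and 8.64 in WT, a difference of 0.17 (SE 0.08; limma, adjusted p = 0.745). Ppargc1a, the coactivator that drives mitochondrial biogenesis, was at 9.50, 10.41 and 9.50 in TG and 9.15, 9.34 and 9.55 in WT, a difference of 0.46 (SE 0.24; limma, adjusted p = 0.777), and 0.68 by its second probe set. Without TG array 2 the first of these was 0.16. Its high value was on TG array 2, the array on which Idh2 was lowest and on which the 8 other members had a mean deviation of 0.031.

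Markers of fibre type and of other cells were set beside these values. The fast fibre and muscle fibre lists share Tnnt3, Mylpf and Atp2a1, so their counts are not separate. Fast fibre markers had a median difference of -0.007 (2 of 7 above 0; Myh1 at 0.06 and Tnni2 at -0.05), and muscle fibre markers -0.014 (0 of 8 above 0; Tnnc2 and Mylpf both at -0.03). Slow fibre markers had 0 of 7 above 0 and a median of -0.127, with mean levels of 7.33 to 7.49 on TG arrays and 7.41 to 7.66 on WT arrays (Tnnt1 at -0.21, SE 0.08; Myl2 at -0.47, SE 0.26). Adipocyte markers had 7 of 7 above 0, with mean levels of 7.26 to 7.41 on TG arrays and 7.07 to 7.14 on WT arrays, so the groups did not overlap (Adipoq at 0.64, SE 0.09; Plin1 at 0.21, SE 0.09). Macrophage markers had 8 of 8 above 0, with mean levels of 6.37 to 6.67 on TG arrays and 6.21 to 6.40 on WT arrays. Itgam was at 0.57 (SE 0.10), Cd68 at 0.51 (SE 0.26), Lyve1 at 0.33 (SE 0.15) and Tyrobp at 0.26 (SE 0.09). Adgre1, Csf1r, Cd14 and Mrc1 were at 0.06, 0.05, 0.01 and 0.08, each smaller than its SE. Bone and osteoclast markers had 7 of 8 above 0, at 6.03 to 6.88 and 5.89 to 6.15 (Ctsk at 0.57, SE 0.18; Acp5 at 0.69, SE 0.21), with TG array 1 highest. Of 3 erythroid markers 1 was above 0 (Epb42 at -0.34 and Alas2 at 0.15). Single arrays moved some of these medians: the adipocyte median was 0.167, and 0.082 without TG array 2, and the bone median was 0.411, and 0.143 without TG array 1. The slow fibre median was -0.127, and it was -0.074 without WT array 1 and -0.182 without WT array 2, with 2 of 7 markers above 0 in each case. The macrophage median was 0.173, and 0.118 without WT array 3, where 4 of 8 markers were above 0. None of these markers passed the threshold, and their part in the members' values was not tested.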

How the data were processed

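The deposited values are log2 expression, in 1 column per array, and span 1.41 to 15.1. How the authors summarised, background-corrected and normalised them is not stated in the labels, and they were used unchanged (array medians differed by 0.0571). RNA was extracted with Trizol and RNeasy columns, per the labels' protocols. The 6 arrays carry 1 common date and no other batch, 0 columns were left out and 0 pairs of arrays were identical.

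Each gene was represented by its single-symbol probe set with the highest mean. TG was set against WT in R 4.3.3 by a two-sided moderated test (limma 3.58.1, lmFit then eBayes), with Benjamini-Hochberg adjustment over 19938 genes called at 0.05. A difference is the TG mean less the WT mean. The fit was tested on simulated data. Figures used matplotlib 3.10.9. The members, lists, motifs and alternatives were chosen with earlier results of these data known. Named genes were all members, the 2 genes of smallest p in each other list (any in the lists of other cycle subunits and paralogs), and the 5 genes most like the members' mean. Further fibre, hepatocyte and macrophage markers were named where they limit a statement about their list. Alternatives were another variance model, array weights, normalization, level filter, handling of probe sets, call rule, a hepatocyte covariate and each array left out. Leaving out arrays for the other lists was added after seeing the data. Promoters came from RefSeq (GRCm38.p6). With 3 arrays per group, their number limits the precision.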

Additional observations from a re-analysis of the deposited data

How the results depend on the processing

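Over 16 alternatives, the 9 members gave 144 differences, of which 138 kept their direction and 0 passed the threshold (limma, lowest adjusted p = 0.648, for Idh2 without TG array 3; under the call rule of unadjusted p the count of members was also 0). The 6 that turned were Mdh2 at 0.025 with a common array median, 0.002 with quantile normalization, 0.003 without TG array 1 and 0.028 without WT array 3, Ogdh at -0.019 with quantile normalization, and Idh2 at 0.011 without TG array 2. The intensity trend, robust moderation, level filter, handling of probe sets and call rule cannot change a member's difference. No direction could turn under these settings. When each array was left out, Idh2 ranged from -0.257 to 0.011 and Mdh2 from -0.058 to 0.028. The cause was not tested beyond the array or scaling that each alternative changes. The members above 0 numbered 7 or 8 throughout. Their median was 0.092 with a common array median and 0.022 to 0.066 when each array was left out, lowest without WT array 2, with the other settings at 0.039 to 0.052. Over all genes, 1 was called, with 1346 at an unadjusted p under 0.05. The count was 7 with an intensity trend, 2 among genes above the median level, 31 by an unadjusted p under 0.01 with a 1.5-fold change, and 0 with robust moderation, a common median, every probe set, the hepatocyte covariate, and without any 1 array (0 to 0). No paired analysis was possible because the labels give no replicate numbers, and those used here only follow deposit order. Signal over background could not be assessed from the deposited values.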

Other observations

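Idh2 was compared with the same 619 genes after its values had been seen. The genes whose values over the 6 arrays were most like it were Gyg, which encodes glycogenin (Pearson's r = 0.967), Mybpc2, the fast myosin-binding protein C gene (0.964), Tcea3 (0.962), Eci1, an enoyl-CoA isomerase of fatty acid oxidation (0.949), and the ribosomal protein gene Rplp1 (0.909). Each had its lowest value on TG array 2, as Idh2 did, and their TG minus WT differences were -0.06 to -0.02. Sharing that array follows in part from choosing the genes by likeness to Idh2. Gyg was at 11.39, 11.30 and 11.41 on the TG arrays and at 11.39, 11.37 and 11.43 on the WT arrays, a narrower range than that of Idh2, which was at 10.60 on TG array 2 and at 11.13 on its highest arrays. These values are a description of 6 arrays.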
